A study of Homo sapiens with 12 samples.

Results

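Ribosome footprints, the mRNA fragments shielded by translating ribosomes, were compared between HEK293T cells null for 4EHP and wild-type (WT) HEK293T cells. The comparison used the 4 Ribo-seq libraries labelled with these genotypes, 2 each, of the 12 libraries in the series. HEK293T is a human embryonic kidney line. Every culture was plated on a 15 cm dish and harvested 24 h later, with no treatment. The GIGYF1/2-null line of the same study, with 2 Ribo-seq libraries, was in the fit and serves as a second comparison, and RNA-seq of the same genotypes is given beside the footprints. The record calls the replicates biological. The labels do not say whether a null line is a clone or whether replicates were separate cultures, so p-values measure only the spread between these libraries.

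4EHP, encoded by EIF4E2, is a relative of the translation initiation factor eIF4E that binds the mRNA cap but does not recruit the initiation machinery. With its scaffold partners GIGYF1 and GIGYF2 it is brought to mRNAs by microRNA complexes, by RNA-binding proteins and by the collision sensor ZNF598, and it keeps those mRNAs from being translated. A footprint count per gene reflects how much mRNA there is and how many ribosomes each mRNA carries, so the mRNA change of a gene is needed to read its footprint change.

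The 4EHP-null libraries held 6536493 and 7332517 footprint counts over 27011 genes, against 6968894 and 10611080 in the WT libraries. After removal of genes with low counts, 14722 genes were tested. Levels are in CPM (counts scaled to library size with TMM factors), changes are log2 differences of 4EHP-null minus WT ± standard error, and a gene is called at an adjusted p under 0.05 from edgeR's quasi-likelihood test (two-sided). Marker genes of the line were present, with NEFM, VIM, KRT18 and CDH2 above 20 CPM in all 4 libraries, and PAX2 at 1.58 and 1.77 CPM in 4EHP-null cells and 2.17 and 2.27 CPM in WT cells. Of the marker lists for other cell types, 6 of 23 leukocyte genes (CD3E among them) and 2 of 19 fibroblast genes (THY1 and FAP) had no count in any of the 4 libraries. CD68 had 35 and 52 counts in 4EHP-null libraries and 37 and 63 counts in WT libraries, LYZ 47 and 66 counts in 4EHP-null libraries and 34 and 51 counts in WT libraries, and PDGFRB 2 and 1 counts in 4EHP-null libraries and 0 counts in both WT libraries.

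A total of 448 genes were called, 3.04% of those tested. Of these, 233 rose (1.58%) and 215 fell (1.46%), and 153 rose and 94 fell by at least 2-fold. Among genes annotated as protein-coding, 145 rose and 203 fell of 12677 tested. The 4EHP-null and WT libraries did not overlap for any of the 448 genes, but 24.9% of all tested genes also had both 4EHP-null libraries above both WT libraries and 26.8% had both below. With each of the 4 libraries left out in turn, 57 of the 448 calls held every time, 37 higher and 20 lower, and 242 ended every time. The precision was uneven across levels. The median standard error was 0.41 for genes under an average log2 CPM of 2 and 0.14 for those between 6 and 8, and the median size of a called change was 2.49 and 0.74 in these classes.

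EIF4E2 itself checked the label. It had 16.8 and 12.1 CPM in the 4EHP-null libraries, against 38.1 and 33.5 CPM in the WT libraries, a log2 change of -1.31 ± 0.18 (adjusted p = 0.00284). The groups did not overlap, and footprints were reduced, not absent. The call ended without 4EHP-null replicate 2 (adjusted p = 0.0599). EIF4E2 mRNA differed by nearly the same amount (-1.33 ± 0.08), and the difference between its footprint and mRNA change was 0.05 ± 0.19 (adjusted p = 0.978).

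The partners of 4EHP were not called. GIGYF1 had 9.45 and 12.3 CPM in 4EHP-null cells and 8.69 and 6.72 CPM in WT cells (0.52 ± 0.24, adjusted p = 0.276). GIGYF2 had 110.2 and 86.2 CPM in 4EHP-null cells and 90.8 and 63.9 CPM in WT cells (0.35 ± 0.22, adjusted p = 0.424), with overlapping libraries, although within each replicate number the 4EHP-null library was the higher. ZNF598, which recognises collided ribosomes, changed by -0.13 ± 0.14 (adjusted p = 0.666). EIF4E2 was the only called gene among the 16 tested members of the 4EHP-GIGYF complex and its binding partners, whose median change was 0.14.

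**Figure D1:**
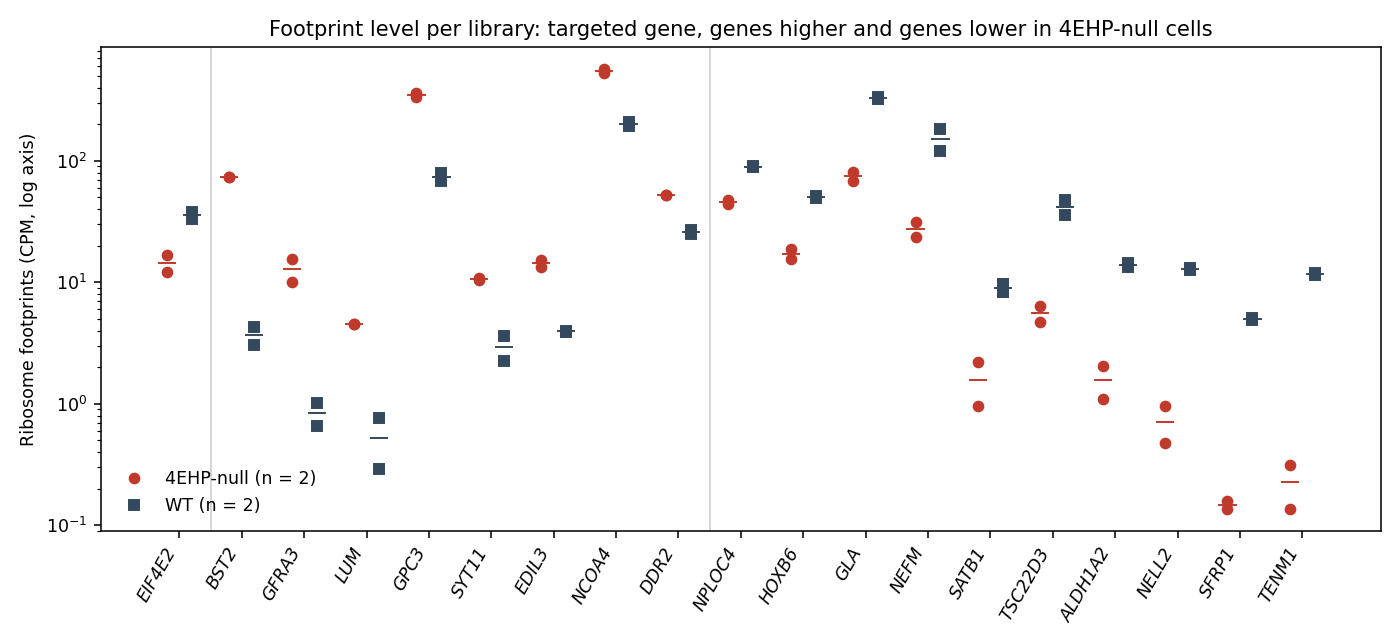
Ribosome footprints in CPM (log axis) of each library for EIF4E2, for 8 genes that rose and for 10 genes that fell, with the 4EHP-null libraries left of the WT libraries and short lines at the group means. For every gene drawn the 2 groups are apart, as for all 448 calls. BST2 had 73.2 and 74.1 CPM in 4EHP-null cells and 3.04 and 4.26 CPM in WT cells. TENM1 had 0.315 and 0.136 CPM in 4EHP-null cells and 11.59 and 12.01 CPM in WT cells.

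BST2 showed the most certain change. This gene encodes tetherin, a membrane protein that holds budding enveloped viruses at the cell surface and is induced by interferon. It had 73.2 and 74.1 CPM in 4EHP-null libraries and 3.04 and 4.26 CPM in WT libraries (4.29 ± 0.18, adjusted p = 4.37e-07). Both 4EHP-null libraries were far above both WT libraries. Its mRNA changed by 4.22 ± 0.13, and footprints minus mRNA gave 0.09 ± 0.23 (adjusted p = 0.972). The call held in each alternative analysis, with changes between 4.12 and 4.59. BISPR, the long non-coding RNA transcribed from the other side of the BST2 promoter, had 4.72 and 5.59 CPM in 4EHP-null cells and 3.91 and 2.65 CPM in WT cells and was not called (adjusted p = 0.262).

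The promoter of BST2 is shown because the gene led the list and the control element known from interferon-stimulated genes can be seen in it. The 250 bases before its start, from the RefSeq promoter table (GRCh38.p14, chr19:17405631-17405880, minus strand), are printed with capitals marking the matches to the core of the interferon-stimulated response element, searched as GAAA and GAAA with any 2 bases between them.
BST2 promoter: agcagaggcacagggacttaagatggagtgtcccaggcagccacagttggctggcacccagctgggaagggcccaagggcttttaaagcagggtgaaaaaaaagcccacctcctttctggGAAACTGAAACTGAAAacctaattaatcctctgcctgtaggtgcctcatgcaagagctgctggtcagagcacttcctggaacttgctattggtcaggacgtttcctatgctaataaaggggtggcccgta
The window holds 2 matches, which overlap each other. On either strand the motif was present in 1061 of 35116 promoters of this length (3.02%). Among tested genes of the interferon list with a promoter in the table, 17 of 33 held it. A match describes these letters only, and binding was not measured.

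The interferon-stimulated and RNA-sensing list had a median change of 0.37 against -0.004 over all tested genes. Of its 40 tested members 1 fell and 5 rose, against 1.46% and 1.58% of all tested genes. Beside BST2 these were LGALS3BP, a secreted galectin-binding protein (0.91 ± 0.17, adjusted p = 0.0141), OAS3, which makes the activator of RNase L (1.23 ± 0.24, adjusted p = 0.0177), the membrane protein IFITM2 (0.79 ± 0.17, adjusted p = 0.0262) and IFIH1, the double-stranded RNA sensor MDA5 (1.18 ± 0.27, adjusted p = 0.0385). OAS3 had 9.13 and 10.1 CPM in 4EHP-null cells, against 4.64 and 3.69 CPM in WT cells. IRF7, a transcription factor of interferon genes, went the other way, with 0 counts in both 4EHP-null libraries and 11 and 7 counts in WT libraries. Against a floor of 3 counts per library it was at least 2.56-fold lower in 4EHP-null cells (adjusted p = 0.0442). The calls of OAS3, IFITM2 and IFIH1 ended without any 1 of the 4 libraries, with adjusted p up to 0.207. Those of LGALS3BP (adjusted p up to 0.125) and IRF7 (up to 0.218) ended without 3 of them. LGALS3BP was retained without 4EHP-null replicate 1 and IRF7 without WT replicate 2, so BST2 alone on this list held throughout. DESeq2 called 3 members of the list and limma-voom 5.

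GPC3, GFRA3, EDIL3, LUM and DDR2, which encode proteins of the cell surface or the surrounding matrix, rose. GPC3, a glypican that carries heparan sulphate at the membrane, had 337 and 363 CPM in 4EHP-null cells and 68.2 and 79.5 CPM in WT cells (2.24 ± 0.14, adjusted p = 1.95e-05). GFRA3, the receptor subunit for the growth factor artemin, had 10.1 and 15.5 CPM in 4EHP-null cells and 1.01 and 0.662 CPM in WT cells (3.98 ± 0.36). EDIL3, a secreted protein that binds integrins, had 15.3 and 13.4 CPM in 4EHP-null cells and 3.91 and 3.97 CPM in WT cells (1.85 ± 0.24). In each of these the 4EHP-null libraries lay well above the WT libraries. LUM, a small proteoglycan that organises collagen, reached 4.57 and 4.50 CPM in 4EHP-null cells against 0.290 and 0.757 CPM in WT cells (2.96 ± 0.42), and DDR2, a receptor kinase for collagen, had 52.1 and 52.9 CPM against 26.9 and 24.8 CPM in WT cells (1.02 ± 0.14). All 5 calls held in each alternative analysis.

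Of 58 tested collagens, laminins and other matrix genes, 5 rose and 2 fell, against 1.58% and 1.46% of all tested genes. The median change of the list was -0.01. GPC3 and LUM rose with the collagen chain COL5A2 (1.12 ± 0.20) and the laminin chains LAMB2 (0.86 ± 0.14) and LAMA5 (0.69 ± 0.16). SPOCK1, a secreted proteoglycan, fell, with 0 and 1 counts in 4EHP-null libraries and 23 and 26 counts in WT libraries, a ratio of 38.4-fold lower with a counting interval from 6.58 to 1547. COL2A1, the collagen of cartilage, fell by 0.68 ± 0.16, while its mRNA changed by 0.17 (adjusted p = 0.392). The difference between its footprint and mRNA change was not called. In the authors' deposited table of translational efficiency COL2A1 was lower in 4EHP-null cells (log2 change -0.81, adjusted p = 0.0357). The calls of LAMA5 (adjusted p up to 0.265) and COL2A1 (up to 0.325) ended without any 1 of the 4 libraries. The COL5A2 (up to 0.127) and LAMB2 (up to 0.1002) calls were retained only without 4EHP-null replicate 1.

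TENM1, NELL2 and SFRP1 fell to a few counts per 4EHP-null library. TENM1, a teneurin of neuronal membranes, had 2 and 1 counts in 4EHP-null libraries and 80 and 127 counts in WT libraries, 54.1-fold lower with a 95% counting interval from 18.2 to 264. NELL2, a secreted protein of neurons, had 3 and 7 counts in 4EHP-null libraries and 90 and 133 counts in WT libraries (17.5-fold lower, interval 9.32 to 36.9). SFRP1, a secreted antagonist of Wnt, had 1 count in each 4EHP-null library and 35 and 52 counts in WT libraries (34.1-fold lower, interval 9.16 to 286). The adjusted p of these 3 genes was 3.85e-05, 3.85e-05 and 2.02e-04. The groups did not overlap for these genes, as for all 448 calls, and each call held in every alternative analysis. In bulk libraries, fewer cells that carry such an RNA and less of it per cell cannot be told apart.

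Neurofilament genes, which mark the neuron-like character of this line, fell as well. NEFM, the medium chain, had 31.3 and 23.4 CPM in 4EHP-null cells and 182 and 121 CPM in WT cells (-2.47 ± 0.29, adjusted p = 0.00115). NEFL, the light chain, had 24.6 and 23.8 CPM against 56.9 and 52.2 CPM in WT cells (-1.17 ± 0.16). The related filament INA changed by -0.78 ± 0.17 and lies in a run of neighbouring genes on chromosome 10, described below. The adhesion molecule NCAM1 had 23.0 and 19.1 CPM in 4EHP-null cells and 43.3 and 39.8 CPM in WT cells (-0.98 ± 0.15). With NELL2 these make 5 of the 25 tested neuronal genes, while 1.46% of all tested genes fell. The median of the list was -0.27. SYT11, a synaptotagmin of vesicle membranes, was the only member that rose, with 10.6 and 10.9 CPM in 4EHP-null cells and 3.62 and 2.27 CPM in WT cells (1.91 ± 0.26). NEFL ended without 4EHP-null replicate 2 (adjusted p = 0.0525), NCAM1 without WT replicate 1 (adjusted p = 0.0529) or 4EHP-null replicate 2 (adjusted p = 0.0909), and INA without any 1 library (up to 0.215).

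Axon guidance and synaptic adhesion genes moved in both directions, with a median of 0.01. Of 60 tested, 3 rose and 3 fell, against 1.58% and 1.46% of all tested genes. Beside TENM1, NRXN3 (-1.03 ± 0.19) and the ephrin receptor EPHB1 (-1.56 ± 0.34) fell. The guidance cue SEMA3A (1.32 ± 0.27), the ephrin receptor EPHA3 (0.92 ± 0.19) and the contactin CNTN1 (0.87 ± 0.18) rose. TENM1 alone held when each library was left out. CNTN1 was retained without 4EHP-null replicate 1 (otherwise adjusted p up to 0.201), and the other 4 calls ended without any 1 library (up to 0.175).

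Developmental transcription factors had 10 called members of 174 tested, and all 10 fell, against 1.46% of all tested genes. HOXB6 had 15.6 and 18.8 CPM in 4EHP-null cells and 49.6 and 51.1 CPM in WT cells (-1.55 ± 0.18, adjusted p = 0.00125). HOXA5 had 8.35 and 8.58 CPM in 4EHP-null cells and 19.4 and 19.2 CPM in WT cells (-1.19 ± 0.17). Both had groups far apart. HOXB8 (-1.51 ± 0.28), HOXB9 (-0.85 ± 0.15) and HOXC9 (-0.82 ± 0.18) were also called. Over the 32 HOX genes tested, which set position along the body axis, 31 had a change below 0 and the median was -0.57, while the median of the whole list of factors was -0.15. The zinc finger factor SALL3 had 0 and 1 counts in 4EHP-null libraries against 22 and 44 counts in WT libraries, 51.7-fold lower with an interval from 8.96 to 2073. EYA1, FOXF1 and SOX21 were called with changes of -2.70 ± 0.45, -1.97 ± 0.30 and -1.87 ± 0.44.

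Among these factors, HOXB6, HOXA5 and SALL3 held whichever library was left out. HOXC9 and SOX21 ended without any 1 of the 4 (adjusted p up to 0.283). FOXF1 ended without 4EHP-null replicate 2 (adjusted p = 0.0789). EYA1 (adjusted p up to 0.107) and HOXB8 (up to 0.144) were retained only without WT replicate 1, and HOXB9 (up to 0.116) only without WT replicate 2.

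Other regulators and enzymes that fell in every alternative analysis had varied roles. GLA, the lysosomal enzyme alpha-galactosidase A, had 67.9 and 81.1 CPM in 4EHP-null cells and 323 and 334 CPM in WT cells (-2.14 ± 0.15, adjusted p = 2.99e-05). ALDH1A2, which makes retinoic acid, had 1.10 and 2.04 CPM against 13.3 and 14.4 CPM in WT cells (-3.10 ± 0.27). TSC22D3, a glucocorticoid-induced regulator also called GILZ, had 4.72 and 6.40 CPM in 4EHP-null cells and 35.6 and 48.0 CPM in WT cells (-2.90 ± 0.23). Each of these was lower in both 4EHP-null libraries by a wide margin. SATB1, a chromatin organiser, had 2.20 and 0.954 CPM against 8.40 and 9.65 CPM in WT cells (-2.55 ± 0.32). The changes of GLA, ALDH1A2, TSC22D3 and SATB1 were close to those of their mRNAs, with footprint minus mRNA values between -0.08 and 0.57, none called.

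Some genes in the named set lost their call with a single library. CHRDL1, a secreted BMP antagonist, had 0 counts in both 4EHP-null libraries and 8 and 18 counts in WT libraries, at least 3.25-fold lower in 4EHP-null cells. Its call was retained without WT replicate 1 and ended without any of the other 3 libraries (adjusted p up to 0.0871). BEX5 (-3.06 ± 0.55, adjusted p up to 0.121) and the protocadherin PCDH19 (-2.74 ± 0.42, up to 0.0789) ended without WT replicate 2 or 4EHP-null replicate 2. NPNT, a matrix ligand of integrins, rose by 1.72 ± 0.25 and ended without 4EHP-null replicate 2 (adjusted p = 0.0539). The transposase-derived gene PGBD3 rose by 1.81 ± 0.30 and the small cytoplasmic RNA BCYRN1 by 1.73 ± 0.28. PGBD3 lies in a run of neighbouring genes on chromosome 10, described below. PGBD3 was retained only without 4EHP-null replicate 2 (otherwise adjusted p up to 0.102), and BCYRN1 ended without WT replicate 2 (adjusted p = 0.0554) or 4EHP-null replicate 1 (adjusted p = 0.0788).

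Several abundant genes in the named set had modest changes. TPR, a filament protein of the nuclear pore, had 1163 and 983 CPM in 4EHP-null cells and 535 and 532 CPM in WT cells (1.01 ± 0.16, adjusted p = 0.00723). FLNA, which crosslinks actin, had 879 and 797 CPM against 449 and 314 CPM in WT cells (1.14 ± 0.26, adjusted p = 0.0354). The groups of both genes were apart, as for all 448 calls. C12orf57 had 871 and 973 CPM in 4EHP-null cells and 231 and 425 CPM in WT cells (1.49 ± 0.35), while its mRNA changed by -0.10 ± 0.10. The difference between the footprint and mRNA change was not called (1.61 ± 0.44, adjusted p = 0.297). In the authors' deposited table of translational efficiency C12orf57 was higher in 4EHP-null cells (log2 change 1.64, adjusted p = 3.28e-06). C12orf57 overlaps the small nuclear RNA gene RNU7-1 in RefSeq, whose part in the value was not tested. SLC25A6, an ADP/ATP carrier of mitochondria, changed by -0.66 ± 0.15, VDAC2, a channel of their outer membrane, by -0.62 ± 0.14 and the small GTPase ARF1 by -0.59 ± 0.14. VDAC2 and ARF1 lie in the runs of neighbouring genes described below, on chromosomes 10 and 1. SLC25A6 had 0 CPM in the RNA-seq libraries of both genotypes, so it has no mRNA change to set beside its footprints. PGAM4 changed by -0.58 ± 0.14, but it is a near-identical copy of PGAM1 and its counts are uncertain. TPR was retained only without 4EHP-null replicate 2 (otherwise adjusted p up to 0.0870) and C12orf57 only without WT replicate 2 (up to 0.249). C12orf57 and FLNA were also not called by DESeq2. The calls of FLNA, SLC25A6, VDAC2, ARF1 and PGAM4 ended without any 1 library (adjusted p up to 0.269).

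Factors of translation initiation and mRNA decay had no call in edgeR, where 3.04% of all tested genes were called. None of 45 cap-binding and initiation factors was called (median 0.02), and EIF4A1, the helicase of the cap complex, had 2165 and 2109 CPM in 4EHP-null cells and 2188 and 2205 CPM in WT cells. None of 38 deadenylation, decapping and decay factors was called (median -0.07), nor any of 18 nonsense-mediated decay factors (median -0.05) or 23 aminoacyl-tRNA synthetases (median 0.07). At an unadjusted p under 0.05 there were 4 initiation factors, 7 decay factors, 2 nonsense-mediated decay factors and 5 synthetases, and DESeq2 and limma-voom each called 1 synthetase and no other member. For single genes of these lists, EIF4E changed by -0.16 ± 0.13 (adjusted p = 0.541), the decapping activator DDX6 by 0.13 ± 0.13 (adjusted p = 0.630) and CNOT1, the scaffold of the deadenylase, by 0.11 ± 0.13 (adjusted p = 0.690).

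Of 29 collision and quality control factors, 1 rose and 1 fell, against 1.58% and 1.46% of all tested genes. NPLOC4, a cofactor of the unfolding enzyme p97, had 44.3 and 47.7 CPM in 4EHP-null cells and 90.7 and 88.9 CPM in WT cells (-0.96 ± 0.13, adjusted p = 0.00284), and its call held in each alternative analysis. LTN1, the ubiquitin ligase of the ribosome quality control complex, had 91.8 and 93.2 CPM against 49.7 and 57.6 CPM in WT cells (0.78 ± 0.14). The LTN1 call ended without any 1 of the 4 libraries (adjusted p between 0.0519 and 0.124).

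Cytosolic ribosomal protein genes shifted slightly downward without a call, where 3.04% of all tested genes were called. None of 85 was called by edgeR (7 at an unadjusted p under 0.05, and 3 called by DESeq2 and 0 by limma-voom), 81 had a change below 0, and the median was -0.16. Their share of all footprint counts was 9.43% and 8.49% in 4EHP-null libraries, against 10.5% and 9.96% in WT libraries. In RNA-seq, where 6.63% of all tested genes fell, 48 of the ribosomal protein mRNAs fell and none rose, with a median of -0.35. The difference between footprint and mRNA change had a median of 0.23 over 83 of them, and none was called for it. RPS4X had 2888 and 2384 CPM in 4EHP-null cells and 2864 and 2650 CPM in WT cells. The other mRNAs with a 5′ terminal oligopyrimidine tract had a median of -0.06 in footprints and -0.26 in mRNA, with no footprint call among 20 by edgeR, DESeq2 or limma-voom and 2 at an unadjusted p under 0.05.

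Both lists of mitochondrial genes had a few calls, all downward. Of 79 mitochondrial ribosomal proteins, MRPL12 (-0.83 ± 0.13) and MRPL55 (-0.66 ± 0.14) fell, and of 75 nuclear-encoded respiratory chain subunits, COX5A (-0.66 ± 0.13), NDUFB8 (-0.62 ± 0.13) and COX8A (-0.55 ± 0.14) fell. Medians of the lists were -0.16 and -0.14, and 1.46% of all tested genes fell. MRPL55, COX5A and NDUFB8 lie in runs of neighbouring genes on chromosomes 1, 15 and 10 whose mRNAs fell together. MRPL12 was retained only without WT replicate 2 (otherwise adjusted p up to 0.103), and the other 4 calls ended without any 1 library (up to 0.303).

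Polyamine enzymes gave 3 calls of 10 tested, all lower, while 1.46% of all tested genes fell. The median of the list was -0.30. ODC1, which makes putrescine, had 139 and 137 CPM in 4EHP-null cells and 219 and 209 CPM in WT cells (-0.63 ± 0.13). AMD1, whose product supplies the aminopropyl group, had 42.8 and 51.0 CPM against 96.1 and 85.2 CPM in WT cells (-0.95 ± 0.20), and SRM, the spermidine synthase, changed by -0.65 ± 0.15. The libraries of each gene did not overlap, as for all 448 calls. AMD1 and SRM mRNA were not called, at -0.09 ± 0.08 and -0.18 ± 0.09, but the footprint minus mRNA change was not called either (adjusted p = 0.306 for AMD1 and 0.605 for SRM). In the authors' deposited table of translational efficiency, AMD1 was lower in 4EHP-null cells (log2 change -0.81, adjusted p = 4.03e-04). Each of the 3 footprint calls ended without any 1 of the 4 libraries (adjusted p up to 0.268).

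Stress and cell cycle lists had between 0 and 2 calls each, where 3.04% of all tested genes were called. ATF3, a stress-induced transcription factor, rose (0.95 ± 0.19) and with DDR2 made up the 2 calls of 41 integrated stress response genes. ATF3 and KLF10 (0.64 ± 0.14) were the 2 calls of 38 immediate early and AU-rich genes. SEL1L, a partner of the ligase that removes misfolded proteins from the endoplasmic reticulum, fell (-0.77 ± 0.14), the only call of 31 unfolded protein response genes. POLA1, the catalytic subunit of DNA polymerase alpha, rose (1.01 ± 0.16), 1 call of 49 replication genes. BNIP3 fell (-0.83 ± 0.14), 1 call of 33 glycolysis and hypoxia genes. BNIP3 lies in a run of neighbouring genes on chromosome 10, described below. In edgeR there was no call among 26 heat shock chaperones, 24 sterol synthesis genes, 28 p53 targets, 43 mitosis genes, 40 proteasome subunits, 20 targets of TGF-beta and BMP and 69 histone genes. At an unadjusted p under 0.05 these 7 lists had between 0 and 5 members each, and DESeq2 called 2 mitosis genes and no other member. The most abundant members of some of these lists changed by 0.12 ± 0.22 (HSP90AA1), -0.13 ± 0.17 (CYP51A1), -0.09 ± 0.15 (CENPF), -0.31 ± 0.15 (PSMA4) and -0.16 ± 0.13 (HEY1). POLA1 ended without WT replicate 2 or 4EHP-null replicate 1 (adjusted p up to 0.0932), BNIP3 was retained only without WT replicate 2 (up to 0.112), and ATF3, KLF10 and SEL1L ended without any 1 library (up to 0.228).

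The epithelial, mesenchymal, Wnt and leukocyte lists gave 1 or 2 calls each, where 3.04% of all tested genes were called. KRT8 rose (0.85 ± 0.15) among 6 epithelial genes, SNAI2, a factor of mesenchymal cells, fell (-1.34 ± 0.21) among 12 fibroblast and mesenchymal genes, of which DDR2 rose. RNF43, which removes Wnt receptors, rose (1.48 ± 0.28) among 15 Wnt targets and feedback genes, of which SFRP1 fell. CD3G rose (1.71 ± 0.37) among 8 tested leukocyte genes. Over the whole leukocyte list of 23 genes the summed level was 28.3 and 34.9 CPM in 4EHP-null cells and 21.3 and 24.8 CPM in WT cells, with 6 genes at 0 in all 4 libraries. PTPRC had at most 1 count per library. KRT8, RNF43 and CD3G ended without any 1 library (adjusted p up to 0.184), and SNAI2 without WT replicate 2 or 4EHP-null replicate 2 (up to 0.0909).

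Of 476 zinc finger (ZNF) genes tested, 9 rose, against 1.58% of all tested genes, and 1 fell, with a median of 0.13. Of these 10 calls, 4 lie in the runs of neighbouring genes described with the chromosomes, ZNF22 and ZNF503 among them. ZNF280C had 95.1 and 86.4 CPM in 4EHP-null cells and 43.2 and 49.9 CPM in WT cells (0.96 ± 0.14). Its mRNA changed by 0.33 (adjusted p = 0.0644), and the difference between footprint and mRNA change was not called. In the authors' deposited table of translational efficiency ZNF280C was higher in 4EHP-null cells (log2 change 0.68, adjusted p = 0.0111). ZNF22 had 48.0 and 44.0 CPM against 21.7 and 18.7 CPM in WT cells (1.19 ± 0.17). ZNF503, a developmental repressor, had 91.0 and 99.9 CPM against 227 and 191 CPM in WT cells (-1.13 ± 0.15), and its call held whichever library was left out. ZNF280C ended without WT replicate 1 (adjusted p = 0.0674) or 4EHP-null replicate 1 (adjusted p = 0.0650), and ZNF22 without WT replicate 2 (adjusted p = 0.0502). Solute carriers had 6 genes up and 5 down of 237, against 1.58% and 1.46% of all tested genes, with a median of 0.03. SLC27A2, which takes up and activates fatty acids, rose by 0.77 ± 0.15, SLC4A10, a bicarbonate transporter, by 3.06 ± 0.63 at under 2 CPM, and SLC38A10 and SLC35B2 changed by -0.86 ± 0.16 and -0.76 ± 0.16. With any 1 library left out at most 1 carrier stayed called, and adjusted p of these 4 reached 0.187.

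**Figure D2:**
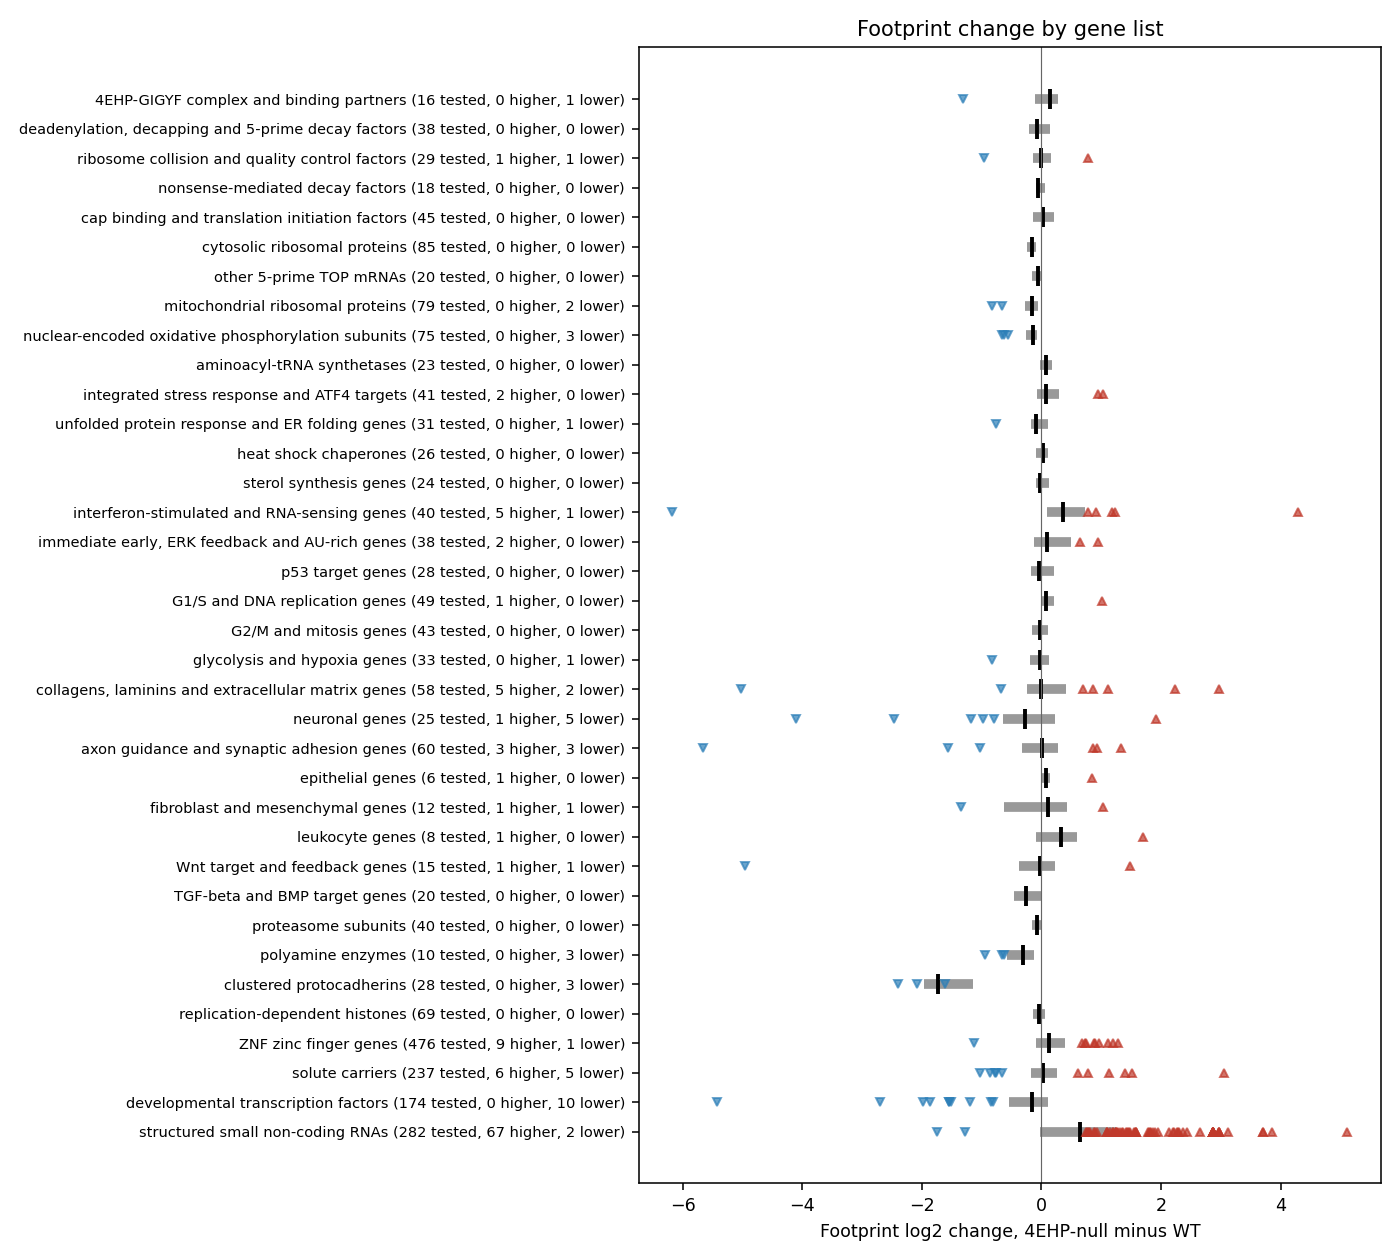
Footprint log2 change (4EHP-null minus WT) for 36 gene lists, with the range between quartiles as a grey bar, the median as a black tick, and called members as upward (higher) or downward (lower) triangles. Most medians lie near 0, while clustered protocadherins sit at -1.73 and structured small non-coding RNAs at 0.65.

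Structured small non-coding RNAs accounted for many of the increases. They are not translated, and the source of their reads in a footprint library was not tested. Of 282 tested, 67 rose and 2 fell, against 1.58% and 1.46% of all tested genes, and the median was 0.65. Several are copies with identical counts, and with each such set counted once 55 rose and 2 fell. Without them, 166 genes rose and 213 fell of 14440. They took 4.19% and 3.32% of the counts in 4EHP-null libraries, against 2.20% and 1.75% in WT libraries, with no overlap. In RNA-seq the share was 0.257% to 0.334% over the 4 libraries. In a fit without these RNAs 386 genes were called, 181 higher and 205 lower, and 367 of them were among the 448.

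RNU12, the U12 RNA of the minor spliceosome, had 173 and 108 CPM in 4EHP-null cells and 29.3 and 30.8 CPM in WT cells (2.22 ± 0.20, adjusted p = 1.16e-04). RNVU1-19, a variant U1 RNA with the highest mean CPM of the table over the 4 libraries, had 28088 and 19884 CPM against 11279 and 8869 CPM in WT cells (1.25 ± 0.23). The snoRNAs SNORD77 (2.19 ± 0.22), SNORD17 (1.54 ± 0.16) and SNORA6 (1.10 ± 0.14) rose as well and lie within GAS5, SNX5 and RPSA in RefSeq. The 2 that fell were SNORA64 (-1.28 ± 0.21) and MIR636 (-1.75 ± 0.31), which lie within RPS2 and SRSF2. Reads of a host and of its small RNA cannot be told apart for these 5. SNAR-A10, whose counts are shared by a family of near-identical copies, rose by 2.87 ± 0.53. RNU12 and the 3 snoRNAs that rose held whichever library was left out. RNVU1-19 was retained only without 4EHP-null replicate 2 (otherwise adjusted p up to 0.184), SNAR-A10 ended without WT replicate 1 or 4EHP-null replicate 2 (up to 0.121), SNORA64 was retained only without WT replicate 2 (up to 0.0920) and MIR636 only without WT replicate 1 (up to 0.121).

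Among microRNA loci, MIR3648-1 and MIR3648-2, with identical counts, had 34.3 and 28.3 CPM in 4EHP-null cells and 1.74 and 2.84 CPM in WT cells (3.71 ± 0.32, adjusted p = 8.92e-05). MIR663B, added here after its values were seen, had 18 and 16 counts in 4EHP-null libraries and 1 and 0 counts in WT libraries, 43.4-fold higher with an interval from 7.28 to 1764. Its call ended without WT replicate 2 (adjusted p = 0.0600) or 4EHP-null replicate 1 (adjusted p = 0.0512). The mature sequences of both loci are shown because no other microRNA locus rose as far, with the seed (bases 2 to 8) in capitals. They do not share a seed. In RefSeq MIR663B lies within ANKRD30BL and MIR3648-1 within a ribosomal RNA precursor gene, so reads of these hosts cannot be told apart from theirs. The hairpin of MIR663B is printed with its mature arm in capitals, since the counts cover the locus and do not show which part of it was read. RefSeq (GRCh38.p14) places hsa-miR-3648 on chr21:8987026-8987046 (plus strand) and the MIR663B hairpin on chr2:132256966-132257080 (minus strand).
hsa-miR-3648: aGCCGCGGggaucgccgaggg
hsa-miR-663b: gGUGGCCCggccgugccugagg
MIR663B hairpin: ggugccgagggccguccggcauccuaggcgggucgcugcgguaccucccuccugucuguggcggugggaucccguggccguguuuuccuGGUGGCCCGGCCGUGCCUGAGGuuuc

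The footprint changes mostly went with mRNA changes. In RNA-seq, 2048 of 15637 genes were called (13.1%), 1012 up (6.47%) and 1036 down (6.63%). Of the 448 footprint calls, 389 had a tested mRNA. The mRNA change had the same sign for 353 of these and was itself called with that sign for 284, and for 1 gene, FSD2, it was called with the opposite sign. Across the 13257 genes tested in both assays, the footprint and mRNA changes correlated with a Pearson r of 0.545 and a Spearman rho of 0.535. Among the 389 calls r was 0.858. These describe genes, which are not independent replicates.

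**Figure D3:**
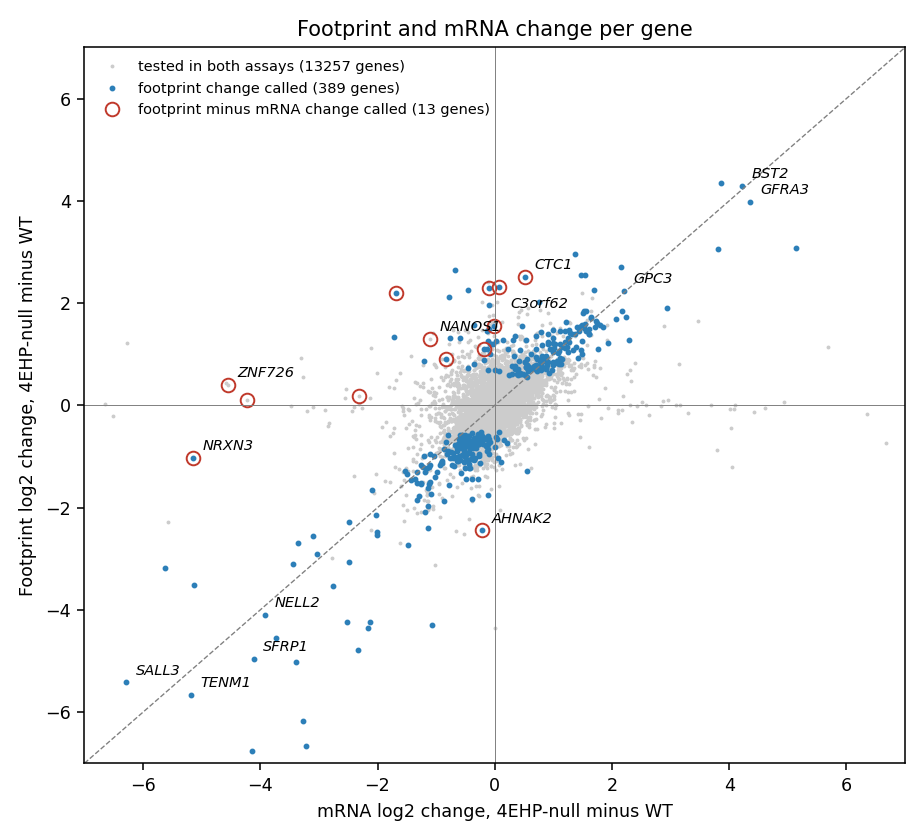
Footprint log2 change against mRNA log2 change (both 4EHP-null minus WT) for 13257 genes in grey, with the 389 called footprint changes in blue and the 13 genes called for the difference circled. BST2, GFRA3, GPC3, NELL2, SFRP1, SALL3 and TENM1 lie near the dashed line of equal change, C3orf62 and CTC1 far above it, and 1 gene falls outside the plotted range of 7 on either side.

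The difference between footprint and mRNA change was tested directly and was called for 13 genes (0.0981%), 12 with a higher footprint change and 1 with a lower one. At an unadjusted p under 0.05 there were 953 genes. C3orf62, an uncharacterised gene, had 1901 and 1523 footprint CPM in 4EHP-null cells and 335 and 352 CPM in WT cells (2.32 ± 0.17), while its mRNA had 8.74 and 8.72 CPM in 4EHP-null cells and 8.98 and 7.69 CPM in WT cells. The difference was 2.27 ± 0.21 (adjusted p = 1.01e-04). CTC1, a subunit of the complex that completes telomere replication, had 400 and 295 footprint CPM against 65.1 and 56.9 CPM in WT cells (2.51 ± 0.17), with mRNA at 20.9 and 19.6 CPM in 4EHP-null cells and 14.7 and 13.6 CPM in WT cells. Its difference was 2.02 ± 0.20 (adjusted p = 2.13e-04). Both differences held in each alternative analysis.

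C3orf62 and CTC1 overlap other genes, as do NRXN3, NANOS1 and AHNAK2, given below. In RefSeq, C3orf62 contains the microRNA gene MIR4271 and overlaps USP4, and CTC1 overlaps 3 tRNA genes and PFAS. The sources used here do not state whether reads were counted by strand. The values of overlapping genes are therefore uncertain, and the part of the tRNA or microRNA loci in these values was not tested. FSD2, which contains the small RNA SCARNA15, likewise rose in footprints (0.91 ± 0.20) with mRNA at -0.83 ± 0.18, and its footprint call was retained only without WT replicate 2 (otherwise adjusted p up to 0.190). SNORA6, SNORD17 and SNORD77 were also among the 12.

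Other genes in this set had a large mRNA decrease with a smaller footprint change. NRXN3, a presynaptic adhesion protein, had 6.77 and 7.36 footprint CPM in 4EHP-null cells and 15.6 and 13.5 CPM in WT cells (-1.03 ± 0.19), while its mRNA had 0.306 and 0.305 CPM in 4EHP-null cells and 9.62 and 12.3 CPM in WT cells (-5.15 ± 0.26). The difference was 4.13 ± 0.34 (adjusted p = 6.28e-05) and held in each alternative analysis, while the NRXN3 footprint call ended without any 1 of the 4 libraries (adjusted p up to 0.121). NRXN3 overlaps several non-coding RNA genes and pseudogenes in RefSeq, whose part in these values was not tested. ZNF726 had 12.8 and 9.67 footprint CPM against 8.40 and 8.42 CPM in WT cells, with mRNA at 0 and 0.0381 CPM in 4EHP-null cells and 0.373 and 0.592 CPM in WT cells. Its difference (4.85 ± 0.79, adjusted p = 0.0260) rests on an mRNA at or near 0 counts, where the fitted value depends on the prior count. It was not called by DESeq2, and in edgeR it ended without any of 6 libraries in turn (adjusted p up to 0.172), each WT and 4EHP-null library of either assay except WT RNA-seq replicate 1 and 4EHP-null Ribo-seq replicate 2.

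NANOS1, a translational repressor of germ cells, had 8.82 and 5.04 footprint CPM in 4EHP-null cells and 3.19 and 2.46 CPM in WT cells (1.30 ± 0.32, adjusted p = 0.0510), while its mRNA changed by -1.11 ± 0.19. The difference was 2.44 ± 0.39 (adjusted p = 0.0246). NANOS1 overlaps EIF3A in RefSeq and lies in a run of neighbouring genes on chromosome 10. The part of either in these values was not tested. AHNAK2, a large scaffold protein, was the only gene with a lower footprint than mRNA change. It had 1.89 and 2.73 footprint CPM in 4EHP-null cells and 9.997 and 15.1 CPM in WT cells (-2.45 ± 0.31, adjusted p = 0.00157), against an mRNA change of -0.22 ± 0.17. The difference was -2.21 ± 0.35 (adjusted p = 0.0246). AHNAK2 overlaps PLD4 in RefSeq, whose part in these values was not tested. The footprint call of AHNAK2 held throughout. The difference ended for NANOS1 without any WT library of either assay or 4EHP-null Ribo-seq replicate 1 (adjusted p up to 0.214), and for AHNAK2 without 6 of the 8 libraries (up to 0.200), the exceptions being WT Ribo-seq replicate 1 and 4EHP-null RNA-seq replicate 1.

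Footprint changes were also grouped along chromosomes. Runs of at least 20 neighbouring genes whose running median of mRNA change was 0.25 or more in size were found in the RNA-seq data, and the footprints of their members were then described. There were 8 runs with 703 genes, 679 of them tested in footprints. Of these 679 genes, out of 14722 tested, 101 were among the 448 footprint calls (22.5% of the calls). Over all tested genes 3.04% were called. The most pronounced ran from CXCL12 to DKK1 on chromosome 10. Its 29 tested genes all had a footprint change above 0, 20 of them called, with a median of 1.40 in footprints and 1.42 in mRNA. NCOA4, the receptor that delivers ferritin to autophagy, lies in it, with 568 and 529 CPM in 4EHP-null cells and 208 and 192 CPM in WT cells (1.45 ± 0.14, adjusted p = 1.56e-04). TIMM23, an import channel of mitochondria, had 367 and 359 CPM in 4EHP-null cells against 116 and 125 CPM in WT cells (1.59 ± 0.13). TIMM23B, a copy of it, lies in the same run, so reads may be split between them.

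Further along chromosome 10, the runs from IPMK to NUTM2D and from CPEB3 to SPRN had median footprint changes of -0.37 and -0.41, with 15 of 115 and 27 of 200 tested genes lower and none higher. Over all tested genes 1.46% were lower and 1.58% higher. On chromosome 15, from DPP8 to WASH3P, the median was -0.41 with 20 of 196 lower and 2 higher. On chromosome 1 the run from H3F3A to GALNT2 had a median of -0.49 with 7 of 29 lower, and the run from HNRNPU to PGBD2 a median of 0.56 with 4 of 19 higher. The chromosome 12 run from KDM2B to ZNF268 had a median of 0.25 with 3 of 69 higher. The run on chromosome 5 was the gamma protocadherin cluster from PCDHGA1 to PCDHGC5, with a median of -1.87 and all 22 genes below 0, of which PCDHGB7, PCDHGC3 and PCDHGC4 were called. These genes share exons, so their counts are not independent. Each of these 3 calls was retained only without WT replicate 1 (otherwise adjusted p up to 0.231). Outside the runs the median of 14043 genes was 0.01.

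**Figure D4:**
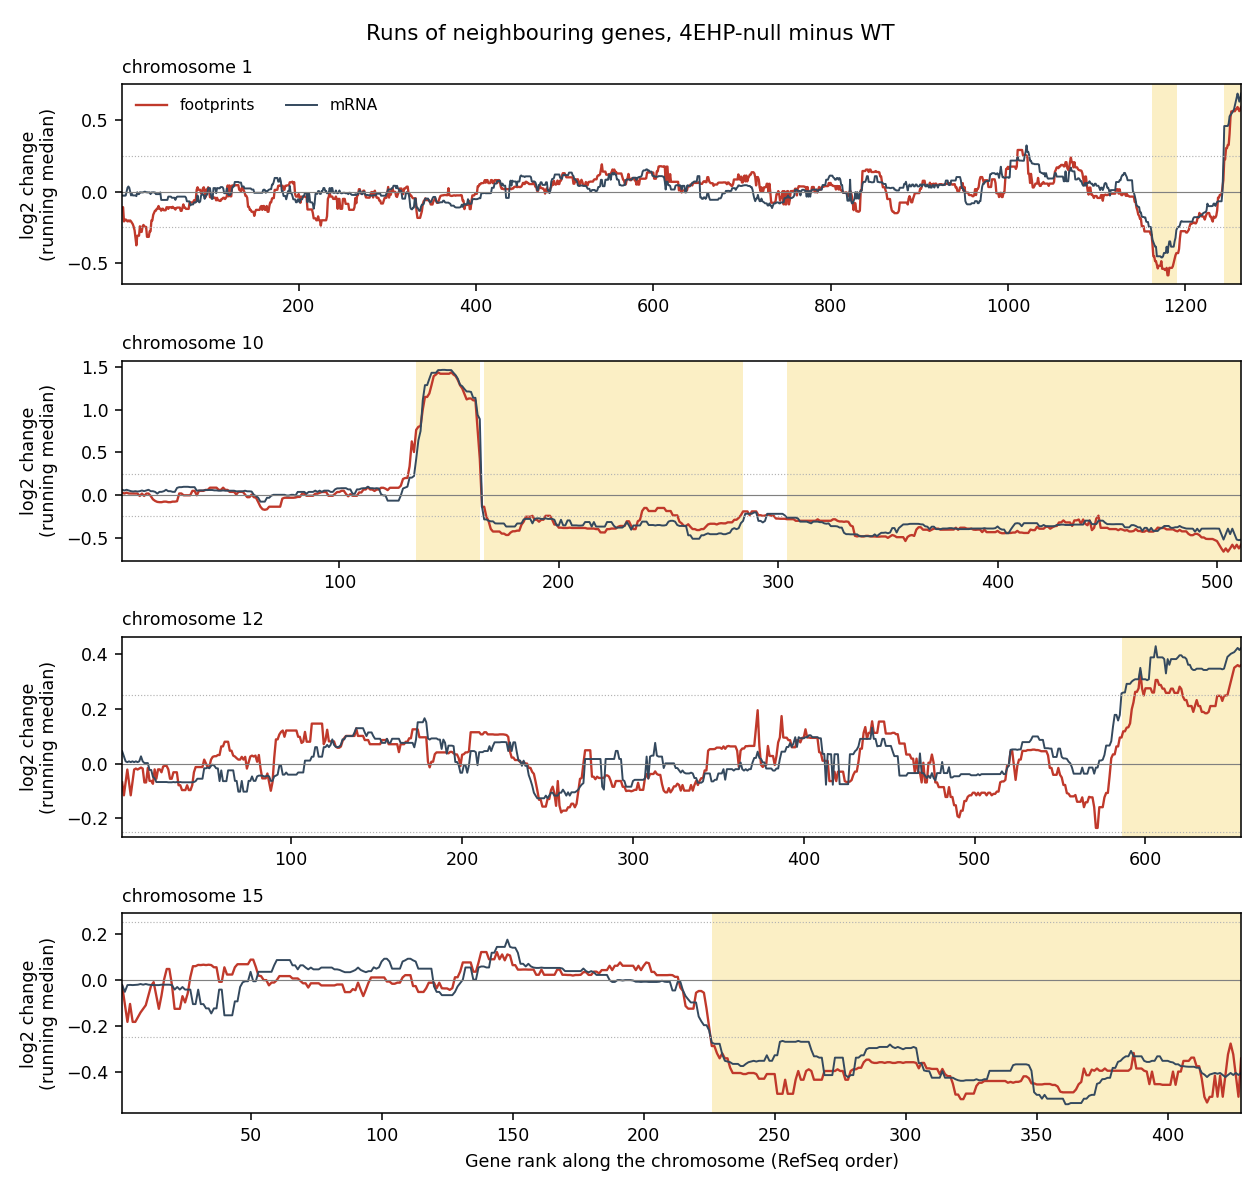
Running median over 25 neighbouring genes of the log2 change (4EHP-null minus WT) in footprints and in mRNA, by gene rank along chromosomes 1, 10, 12 and 15, with the runs shaded and dotted lines at 0.25 above and below 0. The footprint line follows the mRNA line through each shaded run, up to a level near 1.4 on chromosome 10.

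The GIGYF1/2-null line, null by its label for both scaffold partners of 4EHP, was set against 4EHP-null cells directly. The 2 knockouts share WT controls, so their changes against WT are given only side by side. Between the knockouts 1587 genes were called (10.8%), 1001 higher in 4EHP-null cells (6.80%) and 586 lower (3.98%). With upper-quartile scaling the split was 835 higher and 825 lower. EIF4E2 had 16.8 and 12.1 CPM in 4EHP-null cells and 40.4 and 35.8 CPM in GIGYF1/2-null cells (-1.40 ± 0.18, adjusted p = 9.84e-04). GIGYF1 had 9.45 and 12.3 CPM in 4EHP-null cells and 1.70 and 2.74 CPM in GIGYF1/2-null cells (2.25 ± 0.28), and GIGYF2 was not called (0.56 ± 0.22, adjusted p = 0.137).

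BST2, GPC3, GFRA3 and SYTL5 were higher in 4EHP-null than in GIGYF1/2-null cells. BST2 had 73.2 and 74.1 CPM in 4EHP-null cells, 4.61 and 4.95 CPM in GIGYF1/2-null cells and 3.04 and 4.26 CPM in WT cells, a difference between the knockouts of 3.94 ± 0.17 (adjusted p = 6.58e-07). GPC3 had 337 and 363 CPM in 4EHP-null cells and 53.9 and 59.98 CPM in GIGYF1/2-null cells (2.62 ± 0.14). GFRA3 had 10.1 and 15.5 CPM in 4EHP-null cells and 0.849 and 1.06 CPM in GIGYF1/2-null cells (3.71 ± 0.33). Neither gene was called between GIGYF1/2-null and WT cells (adjusted p = 0.186 and 0.841). SYTL5, a Rab27 effector in vesicle traffic, had 9.92 and 11.6 CPM in 4EHP-null cells, 0.728 and 0.796 CPM in GIGYF1/2-null cells and 5.07 and 4.35 CPM in WT cells. It differed by 3.79 ± 0.30 between the knockouts, with 4EHP-null libraries above and GIGYF1/2-null libraries below both WT libraries.

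NELL2, SFRP1, CHRDL1, BEX5 and GLA were lower in 4EHP-null than in GIGYF1/2-null cells. NELL2, CHRDL1 and GLA were also called higher in GIGYF1/2-null than in WT cells, while SFRP1 (0.73 ± 0.21, adjusted p = 0.108) and BEX5 (1.23 ± 0.30, adjusted p = 0.0585) were not called there. NELL2 had 0.472 and 0.954 CPM in 4EHP-null cells, 26.6 and 31.2 CPM in GIGYF1/2-null cells and 13.0 and 12.6 CPM in WT cells, 40.1-fold lower in 4EHP-null than in GIGYF1/2-null cells (interval 21.6 to 84.0). SFRP1 had 0.157 and 0.136 CPM in 4EHP-null cells and 8.01 and 8.49 CPM in GIGYF1/2-null cells and was 56.7-fold lower in 4EHP-null cells (interval 15.5 to 472). CHRDL1, with no count in 4EHP-null libraries, had 8.73 and 9.55 CPM in GIGYF1/2-null cells and 1.16 and 1.70 CPM in WT cells, and was at least 20.8-fold lower in 4EHP-null than in GIGYF1/2-null cells. BEX5 had 0.787 and 0.136 CPM in 4EHP-null cells and 7.76 and 9.82 CPM in GIGYF1/2-null cells, 20.4-fold lower (interval 9.20 to 56.4). GLA had 67.9 and 81.1 CPM in 4EHP-null cells and 668 and 702 CPM in GIGYF1/2-null cells, a difference of -3.20 ± 0.15. TENM1 was low in both lines, with 0.315 and 0.136 CPM in 4EHP-null cells, 1.46 and 0.885 CPM in GIGYF1/2-null cells and 11.59 and 12.01 CPM in WT cells.

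**Figure D5:**
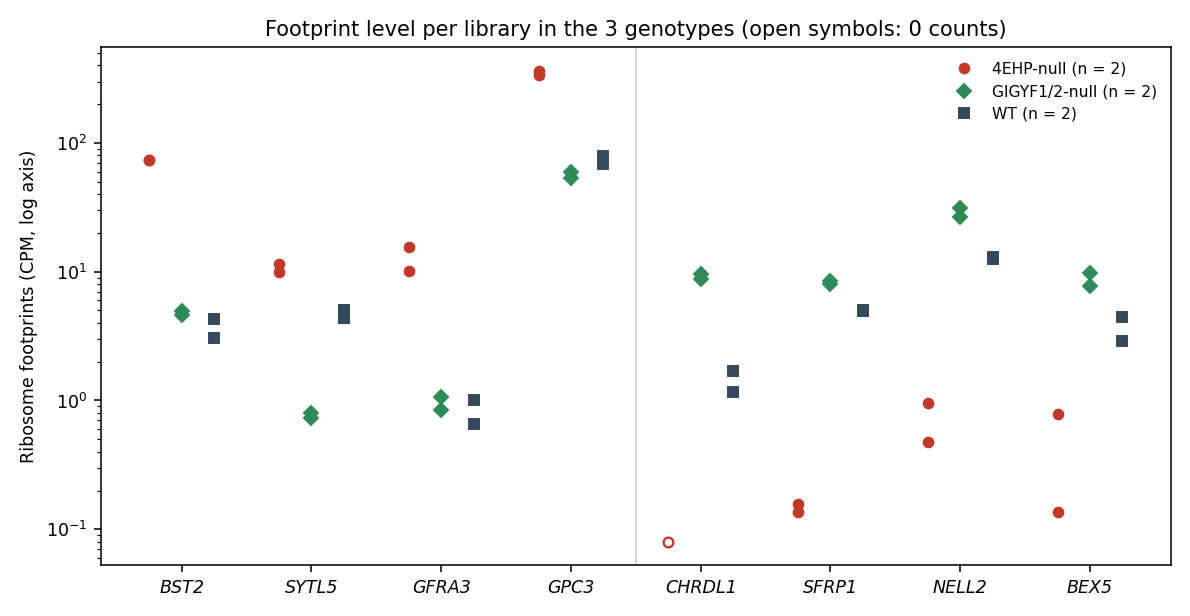
Ribosome footprints in CPM (log axis) of each library in 4EHP-null, GIGYF1/2-null and WT cells for the 4 genes highest and the 4 genes lowest in 4EHP-null against GIGYF1/2-null cells among called genes with a mean log2 CPM of at least 2, microRNA and other non-coding symbols passed over. The 4EHP-null libraries stand apart from the GIGYF1/2-null libraries for each gene, which the naming rule asked for. CHRDL1 is drawn at the bottom as open symbols for 0 counts.

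C3orf62 and CTC1 were above WT in both lines. C3orf62 had 1901 and 1523 CPM in 4EHP-null cells, 880 and 711 CPM in GIGYF1/2-null cells and 335 and 352 CPM in WT cells, and differed by 1.11 ± 0.17 between the knockouts (adjusted p = 0.00235). CTC1 had 400 and 295 CPM in 4EHP-null cells, 112 and 131 CPM in GIGYF1/2-null cells and 65.1 and 56.9 CPM in WT cells, and differed by 1.51 ± 0.17 (adjusted p = 4.06e-04).

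In the authors' deposited table of the same comparison, 371 genes were higher and 277 lower at an FDR under 0.05 among 10766 genes. All 315 of the 448 genes called here that are listed in the authors' deposited table were called there with the same sign. The authors' deposited table of translational efficiency called 23 genes higher and 27 lower of 9870. Of the 13 genes called here for footprint minus mRNA change, 4 are listed in the authors' deposited table. All 4 were called there with the same sign. Both deposited tables come from the libraries of this series, so the shared calls are not independent support.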

How the data were processed

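Gene counts were deposited by the authors for 27011 genes in 12 libraries, 6 of Ribo-seq and 6 of RNA-seq, with no normalization. Per the submitters' processing notes, Bowtie2, TopHat2 and edgeR were used with hg19. No versions, counting tool or strand setting are given there. The authors' deposited table of log2 fold changes with FDR values, and their table of log2 translational efficiency with adjusted p-values, were read only for the comparison named with them.

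From the counts, edgeR 4.0.16 (R 4.3.3, limma 3.58.1) fitted genotype over the 6 Ribo-seq libraries, with low counts removed by filterByExpr, TMM scaling and a quasi-likelihood test. All p-values were adjusted by Benjamini-Hochberg over all tested genes with a threshold of 0.05. RNA-seq was fitted the same way, and the difference of the 2 changes as an interaction over both assays. DESeq2 1.42.0 and other scalings were alternatives. The scripts were tested on simulated data. Genes near 0 are given as ratios of summed, scaled counts with exact 95% intervals, or against a floor of 3 counts per library. Both cover counting error only, since no molecular identifiers are described.

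Named genes were EIF4E2, GIGYF1, GIGYF2 and ZNF598, the 12 called genes with the largest change in each direction where the mean log2 CPM reached 2 and the groups were apart, and the 6 most abundant calls in each direction. Also named were up to 6 genes in each direction for footprint minus mRNA change. Against GIGYF1/2-null cells 4 in each direction were named, again with a mean log2 CPM of at least 2 and groups apart. Each list gave up to 2 called members per direction or, without a call, its most abundant member. Identical counts, as in the SNAR-A family, were named once. This was decided, and all other named genes were chosen, after their values were seen, among them further called list members, BISPR, EIF4E, DDX6, FSD2, TIMM23, the protocadherins and MIR663B. Not every gene that the rule names is given in the text. The members, gene lists and runs were chosen with earlier results of these data known. Gene order came from RefSeq (GRCh38.p14, not hg19) and served only to find neighbours. It held 94.5% of the genes.

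Total counts were 6536493 to 10816080 per Ribo-seq library and 26143118 to 38175701 per RNA-seq library. The median standard error of a footprint change was 0.19.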

Additional observations from a re-analysis of the deposited data

Results flagged for a closer look

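For 8 genes the change in 4EHP-null cells differed from that in GIGYF1/2-null cells, by the direct contrast of the 2 knockouts in edgeR's quasi-likelihood test. Differences are log2, 4EHP-null minus GIGYF1/2-null. BST2 differed by 3.94 (adjusted p = 6.58e-07), SYTL5 by 3.79 (adjusted p = 3.67e-05), GFRA3 by 3.71 (adjusted p = 8.72e-05) and GPC3 by 2.62 (adjusted p = 2.00e-06). In the other direction, SFRP1 differed by -5.69 (adjusted p = 2.99e-05), NELL2 by -5.28 (adjusted p = 1.94e-06) and BEX5 by -4.29 (adjusted p = 4.06e-04). CHRDL1 had a fitted difference of -9.28 (adjusted p = 4.70e-05), which depends on the prior count because both 4EHP-null libraries held 0 counts. The 8 were named as the 4 largest of the 1587 calls in each direction with a mean log2 CPM of at least 2. The naming rule also asked for groups that were apart, and microRNA and other non-coding symbols were passed over. That both 4EHP-null libraries lay on the same side of both GIGYF1/2-null libraries for each gene therefore adds no support. Below that level other genes differed by as much, among them SPOCK1 (-6.37) and SALL3 (-5.10).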

How the results depend on the processing

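Relative to the 448 footprint calls, no filter on low counts gave 1166, only the 4 libraries compared gave 750, a fold minimum of 1.2 (glmTreat) gave 246, and leaving out genes in runs gave 290. Dropping 1 library gave 103 to 133. Other scalings, a stricter filter, DESeq2, limma-voom, no small RNAs and identical genes counted once (added after seeing the data) gave 323 to 460. For the 13 genes with a footprint change unlike their mRNA change, DESeq2 gave 24 and dropping 1 library 5 to 45. The 45, of which 35 were lower, came without 4EHP-null RNA-seq replicate 1. For the 1587 calls against GIGYF1/2-null cells, no filter gave 2405 and dropping 1 library 388 to 1694. The cause of these differences was not tested. Without 4EHP-null replicate 1 or 2, 70.9% and 72.8% of footprint calls were higher, against 52.0%. Of 76 named footprint calls, 26 held in every alternative run and none reversed. With 2 libraries per group, small changes of low genes lie within the error.

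With the replicate number as a replicate block, the counts were 1830, 88 and 3291, and GIGYF2 was called (0.36, adjusted p = 0.045). Deviations of same-numbered Ribo-seq libraries correlated over 7324 genes with r of 0.214 (4EHP-null and WT), 0.360 (4EHP-null and GIGYF1/2-null) and 0.630 (GIGYF1/2-null and WT). The labels tie the numbers to no shared batch.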

Other observations

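Some genes outside the named set had large decreases that held whichever library was left out, and they were chosen after their values were seen. GALC, the lysosomal enzyme that breaks down galactosylceramide, had 0 counts in both 4EHP-null libraries and 17 and 45 counts in WT libraries, at least 7.63-fold lower against the floor of 3 counts per library. RARB, a retinoic acid receptor, had 1 and 2 counts in 4EHP-null libraries and 31 and 46 counts in WT libraries, 20.1-fold lower with a counting interval from 6.63 to 99.6. FBXL16, an F-box protein, had 1 count in each 4EHP-null library and 27 and 38 counts in WT libraries, 25.5-fold lower with an interval from 6.77 to 215. The adjusted p of GALC, RARB and FBXL16 was 0.00328, 0.00132 and 0.00157 (edgeR).

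Changes of 3 more abundant genes also held whichever library was left out. AMOT, a scaffold of the Hippo pathway, had 92.8 and 106 CPM in 4EHP-null cells and 277 and 258 CPM in WT cells (-1.43 ± 0.15). IGF1R, the receptor of insulin-like growth factor 1, had 18.27 and 20.03 CPM in 4EHP-null cells and 46.9 and 42.6 CPM in WT cells (-1.22 ± 0.15) and lies in the chromosome 15 run. PLA2G4A, a phospholipase that releases arachidonic acid, had 49.8 and 47.3 CPM in 4EHP-null cells and 23.6 and 23.7 CPM in WT cells (1.03 ± 0.14).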
